A study of Arabidopsis thaliana with 5 samples.

Results

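The terpene synthase family of Arabidopsis thaliana was examined in root cells treated with brassinolide (BL), the most active natural brassinosteroid. The family was taken as 33 loci listed by their locus identifiers, and a locus was used where the array carried a probe set that the platform annotation assigns to exactly 1 gene. In the annotation table used here this held for 19 of the 33 loci, out of 13286 genes with such a probe set and 22746 probe sets in all. That table leaves many probe sets unnamed, so 19 is the number of loci that could be named and not the number the array carries. The tested cells came from seedlings that carried the reporter pBRL3:nlsYFP, a nuclear yellow fluorescent protein driven by the promoter of the brassinosteroid receptor gene BRL3. The BL group had 2 arrays, from 6-day-old seedlings kept for 2 h in liquid medium with 10 nM BL, and the control group had 3 arrays, from seedlings of the same age and reporter kept in medium with ethanol as the mock. In both groups primary root tips were digested to protoplasts, fluorescent cells were sorted, and the RNA of the sorted cells was measured on Affymetrix ATH1 arrays, so every group was also exposed to liquid medium, protoplasting and sorting. Nothing in the labels tells whether replicates are separate seedling batches, and p-values therefore reflect array-to-array spread alone, part or all of which may be technical.

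Terpene synthases convert linear prenyl diphosphates into the carbon skeletons of terpenes. Their substrates come from the mevalonate pathway of the cytosol and the methylerythritol phosphate (MEP) pathway of plastids through prenyl diphosphate synthases, which set the chain length and thereby the class of product, such as monoterpenes, sesquiterpenes, diterpenes or sesterterpenes. Most members serve specialised metabolism, including volatiles and semi-volatile compounds of roots and flowers, while ent-copalyl diphosphate synthase and ent-kaurene synthase make the precursor of the gibberellin hormones. In Arabidopsis many of these genes lie side by side in small groups, often next to prenyl diphosphate synthase or cytochrome P450 genes.

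The measured members were mainly of the large TPS-a subfamily, which holds sesquiterpene, diterpene and sesterterpene synthases, with 17 of 23 loci. The TPS-b subfamily of monoterpene synthases had 2 of 6 loci, AT3G25810 and the cineole synthase locus AT3G25830 (TPS-CIN). The gibberellin enzymes GA1 (ent-copalyl diphosphate synthase) and GA2 (ent-kaurene synthase), the geranyllinalool synthase TPS04 and the related TPS14 were not analysed here, since the annotation table used here names no probe set for them alone. The same holds for TPS02, TPS03, TPS10, TPS12, TPS13, TPS21, TS1, AT3G14540, AT3G25820 and AT4G20210, which brings the loci not analysed to 14. Most measured members carry no gene symbol in the annotation and are named by locus.

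The 5 arrays had medians between 5.57 and 5.66 on the log2 scale of the deposited values. Across probe sets, the correlations of control replicate 2 with the others were 0.898 to 0.915, and that between the BL arrays was 0.992. Probe sets for added poly-A transcripts had medians of 4.53 and 4.76 on the BL arrays and of 4.72, 8.31 and 7.64 in control replicates 1, 2 and 3. Controls 2 and 3 therefore stand apart from the other 3 arrays, and for the genes described singly below the difference from control replicate 1 alone is mostly given as well. The probe sets for hybridisation controls were also lower on the BL arrays (8.02 and 7.68) than in control replicates 1, 2 and 3 (8.49, 10.48 and 9.41). Of the root cell markers listed for a check of the sorted cells, those of the endodermis and the root cap, and BRL3 itself, were not analysed here, so the sorted cells were not checked against the gene that defines them.

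Members lay on both sides of 0 with BL. The mean was higher with BL for 9 members and lower for 10, or 47.4% and 52.6%, beside 45.3% and 54.7% of all probe sets, and the median log2 difference over the 19 was -0.02, the same to that digit as the median over all probe sets. No member passed limma at 0.05 after Benjamini-Hochberg adjustment across the whole table, where adjusted p values of members ran from 0.455 to 0.978, and 0% of the 22746 probe sets passed (smallest adjusted p 0.168). At an unadjusted p under 0.05 there were 2 members, AT1G31950 and AT3G32030, both higher with BL. These are 10.5% of the members, beside 7.1% of all probe sets in either direction, of which 4.05% lay on the higher side and 3.06% on the lower. All differences below are therefore values and not calls.

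The BL arrays lay wholly above the control arrays for 4 members and wholly below them for 0. The share of 21.1% of the members equals the 21.1% of all probe sets that separated in either direction, 11.4% on the higher side and 9.75% on the lower. With a fold of at least 1.5 asked as well, 3 members were separated on the higher side, AT1G31950, AT1G33750 and AT3G32030, where 6.22% of all probe sets were, and 0 on the lower side, where 4.8% were. By fold alone, 4 members were at least 1.5 times higher and 1 was as much lower with BL, or 21.1% and 5.26% of the members, beside 8.88% and 8.58% of all probe sets (17.5% in either direction). The counts are small, and 1 member more or less moves them by several percentage points.

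**Figure D1:**
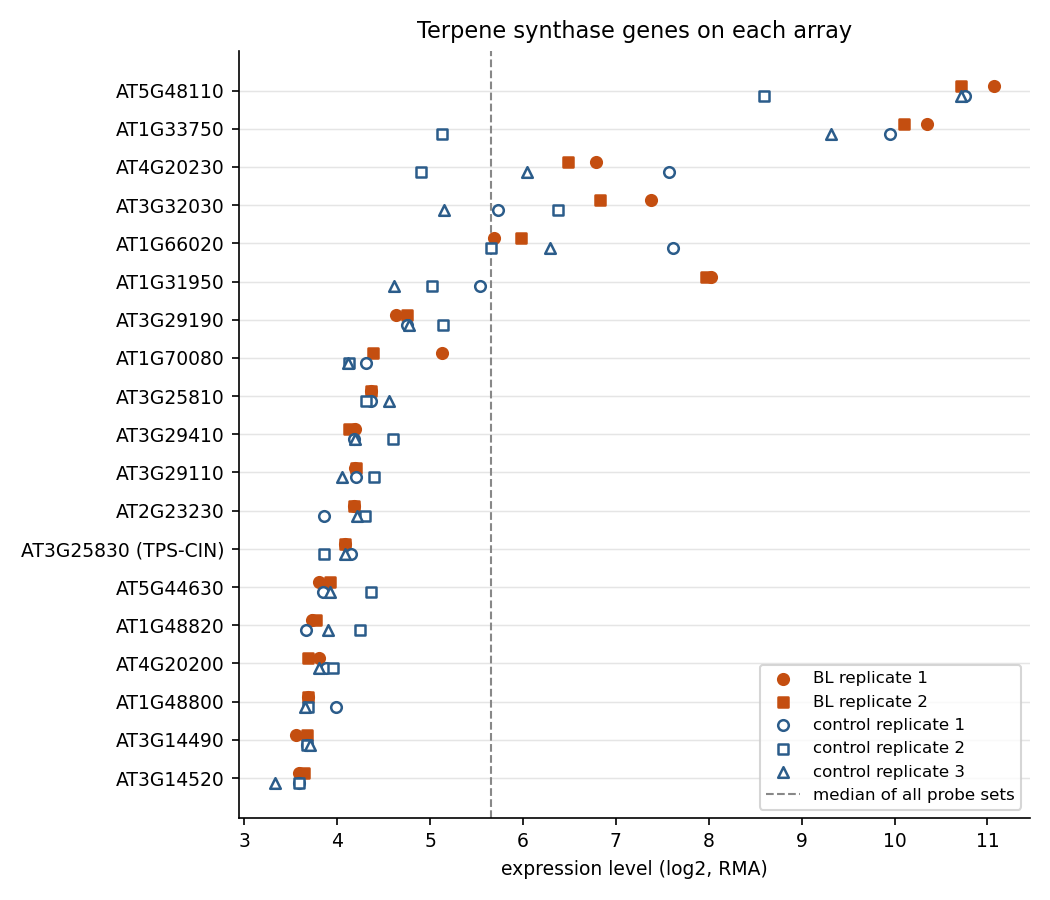
Expression level (log2, RMA) of the 19 measured terpene synthase genes on each array, with filled marks for the 2 BL arrays, open marks for the 3 control arrays and genes ordered by their mean over the 5 arrays. The 6 genes at the top have a mean above the dashed median of all probe sets and range over 1.95 to 5.23 log2 units between arrays, while the 13 below range over 0.155 to 1.02. AT1G31950 is among the 6 through its BL arrays, and its range includes its difference with BL.

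The measured members fell into 6 whose mean over the 5 arrays was above the median of all probe sets, 5.65, and 13 below it. The first 6 were AT5G48110, AT1G33750, AT4G20230, AT3G32030, AT1G66020 and AT1G31950. AT1G31950 was among them through its BL arrays, since its control mean of 5.06 was below that median. A probe set's level depends on its probes as well as on the transcript. The split and order of genes by level are therefore of probe set signal and do not rank genes by transcript abundance. In bulk RNA of sorted cells, fewer cells that express a gene and less RNA of it per cell cannot be told apart.

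AT1G31950 had the widest difference of the measured members. It was at 8.02 and 7.97 on the BL arrays, against 5.54, 5.02 and 4.61 in control replicates 1, 2 and 3. Every BL value lay above every control value, by 2.43 log2 units at the nearest pair, and the BL arrays lay close together. Within each array its signal stood at the 81.2 and 80.0 percentile of all probe sets with BL and at the 48.7, 41.8 and 35.9 percentile in the controls, so its probe set was above the array median only on the BL arrays.

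The mean of AT1G31950 was 8.00 ± 0.0369 with BL over the 2 arrays and 5.06 ± 0.464 in controls over the 3 arrays (mean ± SD). The log2 difference of 2.94 ± 0.302 (SE) is a fold of 7.66, and it was 2.46 against control replicate 1. Of the 22746 probe sets, 19 had a difference this large or larger on the higher side, AT1G31950 included. The limma adjusted p after Benjamini-Hochberg over all probe sets was 0.455. The gene was singled out for this difference in earlier results of the same arrays, so its values are a description. Of the quiescent centre and stem cell niche markers, 4 of 8 were measured (AGL42, BBM, JKD and BRL1). Their log2 summed level was 7.41 to 7.98 on the BL arrays and 7.09 to 7.46 on the control arrays. Each of the 4 overlapped between groups, with differences of -0.16 for AGL42, 0.58 for BBM, 0.47 for JKD and 0.70 for BRL1. BRL1 was lowest in control replicate 2, and its difference was 0.21 against control replicate 1. The part of these markers in the AT1G31950 value was not tested.

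AT3G32030 was the other member with an unadjusted p under 0.05. Its signal was 7.37 and 6.83 on the BL arrays, against 5.73, 6.38 and 5.15 in control replicates 1, 2 and 3. The groups did not overlap, but the lower BL value was only 0.45 units above the highest control, and both groups spread by more than AT1G31950 did with BL. The means were 7.10 ± 0.385 with BL over its 2 arrays and 5.75 ± 0.613 over the 3 controls (mean ± SD). The log2 difference of 1.35 ± 0.429 (SE), a fold of 2.55, was 1.38 against control replicate 1 and did not pass (limma adjusted p = 0.655). AT3G32030 is the only measured member on a probe set with the suffix s_at, which Affymetrix gives to sets whose probes match more than 1 transcript. The annotation names AT3G32030 alone for it, and signal from a similar transcript cannot be told apart from its own.

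**Figure D2:**
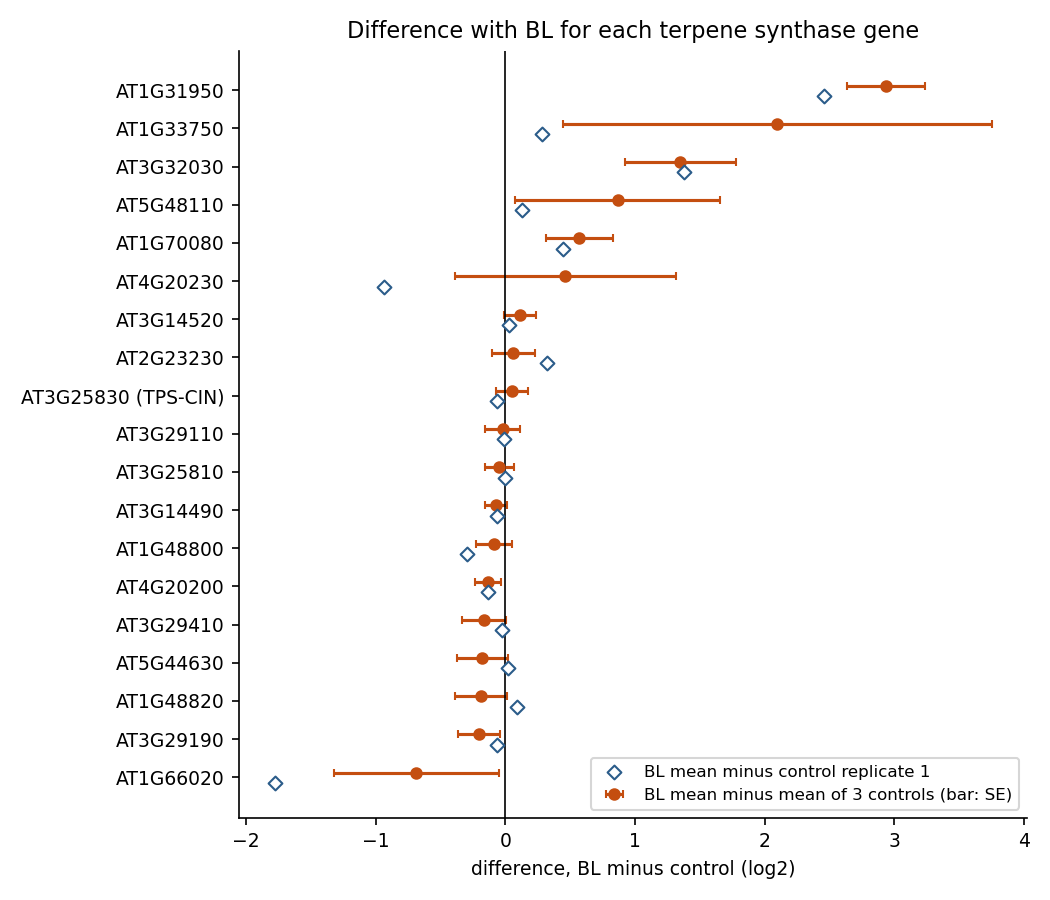
Log2 difference between BL and control for each measured terpene synthase gene, as the BL mean minus the mean of the 3 controls with its standard error (filled circles) and as the BL mean minus control replicate 1 (open diamonds). AT1G31950 and AT3G32030 stay far from 0 on both measures, at 2.94 and 2.46 and at 1.35 and 1.38, while AT1G33750 goes to 0.28 and AT4G20230 to -0.93 against control replicate 1.

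For AT1G33750 and AT5G48110 the difference turned on control replicate 2, and for AT4G20230 on control replicates 1 and 2. AT1G33750 was at 10.4 and 10.1 on the BL arrays, against 9.95, 5.12 and 9.32 in control replicates 1, 2 and 3. The BL arrays were the highest of the 5, yet control replicates 1 and 3 were close to them, and control replicate 2 was 4.83 units below control replicate 1. The log2 difference of 2.10 ± 1.65 (SE) had a limma adjusted p of 0.801, it was 0.60 without control replicate 2, and it was 0.28 against control replicate 1.

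AT5G48110 was also lowest in control replicate 2. It was at 11.1 and 10.7 on the BL arrays, against 10.8, 8.59 and 10.7 in control replicates 1, 2 and 3. The groups overlapped, since the second BL array lay below control replicate 1. The difference was 0.87 ± 0.791 (SE, limma adjusted p = 0.817), 0.15 without control replicate 2 and 0.13 against control replicate 1. Apart from control replicate 2, this probe set stood between the 97.7 and 98.5 percentile on all arrays, treated or not.

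AT4G20230 was at 6.78 and 6.48 on the BL arrays, against 7.57, 4.90 and 6.04 in control replicates 1, 2 and 3. Here the controls lay on both sides of the BL arrays. The difference of 0.46 ± 0.85 (SE, limma adjusted p = 0.889) became 1.16 without control replicate 1 and -0.17 without control replicate 2. It was -0.93 against control replicate 1, so its sign depended on which controls were used.

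Control replicate 2 was the lowest or joint lowest array for 4 of the 6 members above the median level and for 6 of all 19, where it was so for 38.9% of all probe sets above the median and 28.4% of all probe sets. A gap as wide as that of AT1G33750, with control replicate 2 at least 4 units below control replicate 1, occurred in 59 probe sets or 0.259%. The hair cell expansins EXPA7 and EXPA18, the 2 of 7 root hair and epidermis markers measured, were highest on that array. EXPA7 was at 4.57 and 4.96 with BL against 4.20, 6.52 and 4.38 in control replicates 1, 2 and 3, and EXPA18 at 4.87 and 5.54 against 4.35, 6.17 and 4.66. The log2 summed level of these 2 genes was 5.73 to 6.28 on the BL arrays and 5.28 to 7.36 on the control arrays. Their part in the values of AT1G33750, AT5G48110 and AT4G20230 was not tested.

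AT1G66020 was the only member with a fold of at least 1.5 on the lower side, and it is named because of its value. It was at 5.69 and 5.98 on the BL arrays, against 7.61, 5.66 and 6.29 in control replicates 1, 2 and 3. Both BL arrays lay below control replicates 1 and 3 and above control replicate 2, so the groups overlapped. The difference was -0.69 ± 0.638 (SE, limma adjusted p = 0.819) and -1.78 against control replicate 1. It went to -0.14 without control replicate 1, the array with the highest value.

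AT1G70080, the remaining member whose groups did not overlap, also named because of its value, was at 5.13 and 4.38 on the BL arrays, against 4.31, 4.13 and 4.11 in control replicates 1, 2 and 3. The second BL array exceeded control replicate 1 by 0.071 units, while the first stood clear of all others. The difference of 0.57 ± 0.257 (SE) had a limma adjusted p of 0.743. It was 0.20 without BL replicate 1 and 0.44 against control replicate 1.

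**Figure D3:**
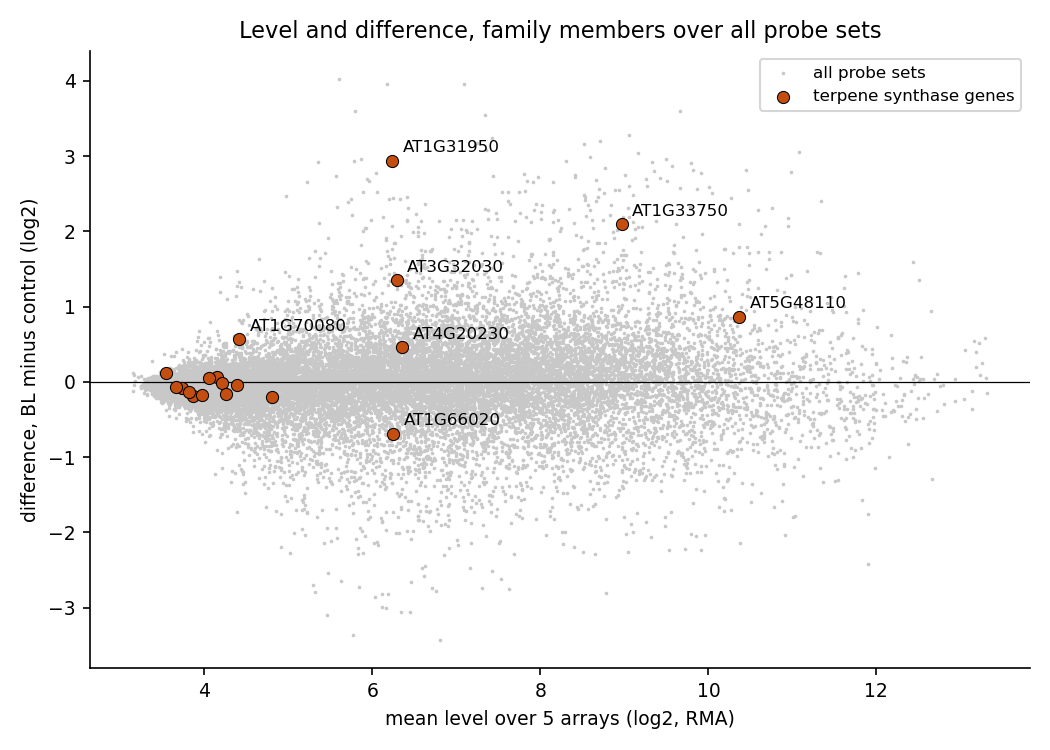
Mean level over the 5 arrays (x axis, log2, RMA) against the BL minus control difference (y axis, log2) for all 22746 probe sets (grey) and the 19 measured terpene synthase genes (filled circles). AT1G31950, at 2.94, lies near the upper edge of all probe sets of its level, and most family members lie at the dim end within 0.2 units of 0.

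The 13 members below the median level gave little variation between arrays. Their values lay between 3.33 and 5.14 on all arrays, and 8 of the 19 members had a mean below the lower quartile of all probe sets, 4.20. The differences of the 13 ran from -0.20 to 0.57, of which 4 were above and 9 below 0, with adjusted p values from 0.743 to 0.978. Without AT1G70080 none exceeded 0.12 on the higher side. This group held AT1G48800, AT1G48820, AT2G23230, AT3G14490, AT3G14520, AT3G25810, AT3G25830, AT3G29110, AT3G29190, AT3G29410, AT4G20200 and AT5G44630 beside AT1G70080. In 11 of the 13 at least 2 arrays shared exactly the same value, as did 44.7% of all probe sets, and in 4 both BL values were identical. Such ties come from the median polish of RMA on few arrays. How far these signals lie above background cannot be told from the deposited values, so a small difference in this group does not show that the transcript did not change.

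Among the cineole synthase genes, AT3G25830 was at 4.08 on both BL arrays, against 4.15, 3.86 and 4.08 in control replicates 1, 2 and 3, a narrow range near the low end of the arrays. A further probe set, which the annotation assigns to both TPS-CIN loci, AT3G25820 and AT3G25830, lies outside the rule and is not counted with the 19. It was at 8.08 and 8.38 on the BL arrays, against 9.33, 7.98 and 9.16 in control replicates 1, 2 and 3. The BL arrays lay between control replicate 2 and the other controls, with a difference of -0.60 ± 0.48 (SE, limma adjusted p = 0.803) that was -1.11 against control replicate 1. That probe set cannot be assigned to one of these loci.

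The spread between replicates was wider in the controls than with BL for 16 of the 19 members and for 82.2% of all probe sets. The median SD of a member was 0.0781 with BL and 0.231 in controls, beside 0.0816 and 0.264 over all probe sets.

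Among members that lie close to each other in the genome, several varied little. AT4G20200 and AT4G20230, separated by AT4G20210 and 1 gene outside the family, had differences of -0.13 and 0.46. That of AT4G20230 had an SE of 0.85. Against control replicate 1 the values were -0.13 and -0.93, so their order depended on the controls used. AT1G48800 and AT1G48820 are adjacent and reached at most 3.98 and 4.24 on any array. The means of AT4G20200, AT1G48800, AT1G48820, AT3G14490 and AT3G14520 were below the lower quartile of all probe sets, 4.20. Small differences there do not show that these transcripts did not change. AT3G14490 and AT3G14520 also varied little, with differences of -0.07 and 0.12. The gene between them, AT3G14510, is on the list of prenyl diphosphate synthases, the enzymes that supply terpene synthases with substrate. It was at 6.65 and 6.35 on the BL arrays, against 5.59, 4.80 and 4.81 in control replicates 1, 2 and 3. The groups did not overlap, and the difference of 1.44 ± 0.309 (SE), a fold of 2.71, was 0.91 against control replicate 1 and did not pass (limma adjusted p = 0.568).

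At AT3G32030 the terpene synthase gene had the wider difference, on a probe set with the suffix s_at. The neighbour of AT3G32030, AT3G32040, is also on the list of prenyl diphosphate synthases. AT3G32040 was at 4.50 and 4.45 on the BL arrays, against 4.44, 4.33 and 4.45 in control replicates 1, 2 and 3. These groups touched, and the difference of 0.07 (0.03 against control replicate 1) was small beside that of 1.35 for AT3G32030. AT3G32040 had a mean of 4.43, below the median of all probe sets, 5.65. At such a level a small difference does not show that the transcript did not change. On either side of AT1G31950, the immediate neighbours AT1G31940 and AT1G31960 overlapped between groups. AT1G31940 was at 6.03 and 6.01 with BL against 6.03, 5.61 and 6.64 in control replicates 1, 2 and 3, and AT1G31960 at 3.83 and 3.96 against 3.85, 4.26 and 3.88. The separation of AT1G31950 was thus not seen at AT1G31940 or AT1G31960. AT1G31960 had a mean of 3.95, below the lower quartile of all probe sets, 4.20, so its values do not show that its transcript did not change. The next genes outward, AT1G31930 and AT1G31970, were not measured. Over all 19 members, 26 of the 61 other genes within 2 places on either side had a single-gene probe set, and 5 of these separated between groups, 2 higher and 3 lower with BL, a share of 19.2% beside the 21.1% of all probe sets. AT5G48130, a neighbour of AT5G48110, was at 8.00 and 7.95 with BL against 8.70, 4.61 and 8.92 in control replicates 1, 2 and 3, and was thus low on the same control array as AT5G48110. Neighbours were looked up after the values of the members were known.

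**Figure D4:**
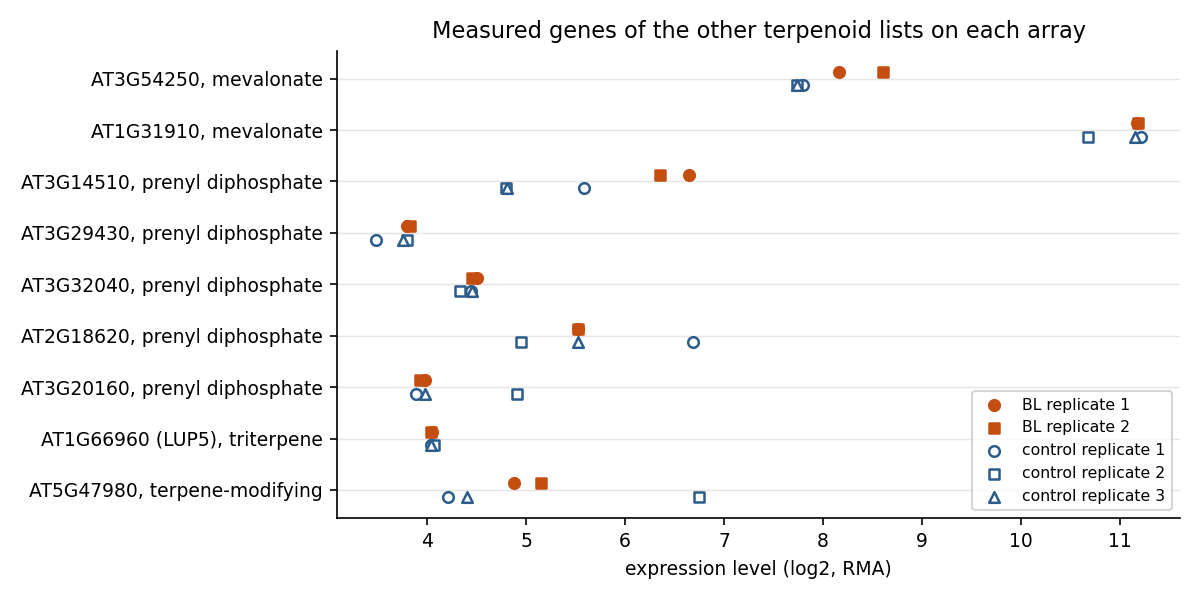
Expression level (log2, RMA) on each array of the 9 measured genes from the other terpenoid lists, with filled marks for the BL arrays and open marks for the controls. Only AT3G54250 and AT3G14510 have both BL arrays above all 3 controls, by differences of means of 0.63 and 1.44. Of all probe sets, 11.4% separated on this side.

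Few genes of the other terpenoid lists could be measured, and 0 of them passed the adjusted threshold in either direction. For the mevalonate pathway 2 of 11 genes had a single-gene probe set, and both had a higher mean with BL. AT3G54250 was at 8.17 and 8.61 on the BL arrays, against 7.79, 7.74 and 7.73 in control replicates 1, 2 and 3. The controls lay close together, within 0.06 units, and below both BL arrays, with a difference of 0.63 ± 0.161 (SE, a fold of 1.55) that was 0.59 against control replicate 1 and did not pass (limma adjusted p = 0.594). It was 0.85 without BL replicate 1 and 0.41 without BL replicate 2. AT1G31910 was at 11.18 and 11.19 on the BL arrays, against 11.22, 10.68 and 11.15 in control replicates 1, 2 and 3. The groups overlapped, and the difference of 0.17 became -0.04 against control replicate 1.

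Of the prenyl diphosphate synthases, 5 of 17 were measured, 3 with a higher and 2 with a lower mean with BL and a median log2 difference of 0.07. AT3G14510, described above, had the widest difference from the mean of the 3 controls. AT2G18620, named because of its value, differed by -0.19 and by -1.16 against control replicate 1. It was at 5.52 on both BL arrays, against 6.69, 4.94 and 5.52 in control replicates 1, 2 and 3. AT3G29430, the neighbour of the terpene synthase gene AT3G29410, differed by 0.14 and by 0.33 against control replicate 1. AT3G20160 differed by -0.30 and by 0.07 against control replicate 1, and the BL and control values of both genes overlapped or touched. LUP5, the only measured gene of 21 for squalene and triterpene synthesis, differed by -0.0046 (0.0043 against control replicate 1). AT5G47980, the only one of 11 terpene-modifying enzymes, was at 4.88 and 5.15 on the BL arrays, against 4.21, 6.74 and 4.40 in control replicates 1, 2 and 3, so that its difference of -0.11 turned to 0.80 against control replicate 1. The 9 genes of the MEP pathway and the 15 of gibberellin synthesis and inactivation were not analysed here. Cortex, vascular and leaf markers, of which 2 of 2, 1 of 8 and 1 of 6 were measured, had overlapping summed levels in both groups, with a difference of -0.22 for the leaf transcript RCA (-0.20 against control replicate 1).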

How the data were processed

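The authors deposited log2 expression values from RMA. The submitters' processing notes list affy 1.70.0, limma 3.48.3 and R 4.1.1. No source used here gives the log base, which was read as 2 because RMA reports log2 and the values fit that range. RMA corrects background, quantile normalizes and summarises probes by median polish. From these values, 64 control probe sets were set aside and BL was compared with control in limma 3.58.1 (R 4.3.3; lmFit and eBayes, 5 arrays, with treatment alone in the model), adjusted by Benjamini-Hochberg over 22746 probe sets and a threshold of 0.05. The fit was also run on simulated data with independent noise and no differences between arrays of a group. That run checks the computation and does not show how the fit performs on these arrays. Genes were named through the platform annotation and, by gene ID, a RefSeq table of assembly TAIR10.1, used for names and gene order only. Each measured member had 1 single-gene probe set.

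Values on every array are given for AT1G31950 and for the 3 members with the highest mean. They are also given for members with an unadjusted p under 0.05, or with separate groups and a fold of at least 1.5. For each other terpenoid list, up to 3 measured genes with the smallest p are named, some by their differences only. The rule also named the gibberellin enzymes and the member closest to AT1G31950 in protein sequence, which were not analysed here. The members and lists, the subfamilies included, were chosen with earlier results of these data known. Alternatives changed the replicate block, the arrays, normalization, filter, floor, variance model and array weights. Replicate numbers were not treated as pairs, and precision is limited by how few arrays there are.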

Additional observations from a re-analysis of the deposited data

How the results depend on the processing

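The count of 0 adjusted calls among the members held in every alternative run. Over all probe sets it held in the 14 alternatives where it was counted, with the smallest limma adjusted p of any probe set at 0.057. That count was not made with the floor. AT1G31950 kept its direction in all 15 alternatives, from 2.46 to 3.18, with adjusted p from 0.141 to 1. Since its groups do not overlap, leaving out, weighting or blocking arrays could hardly turn its sign. For every gene kept, the filter and the variance models leave the difference unchanged, so they could not turn a sign. The replicate block gives the same difference as leaving out control replicate 3. The term for controls 2 and 3 gives the same difference as control replicate 1 alone. The 2 members with an unadjusted p under 0.05 became 1 without AT1G31950, 1 with the replicate block (5.32% of all probe sets), 1 with the floor (5.77%) and 1 in the ordinary linear model (4.39%). With the block, the floor and the ordinary model, AT3G32030 was the member that dropped out. A term for controls 2 and 3 gave 4 members (8.08%), of which AT1G66020 was lower with BL, and AT3G32030 was not among them. With control replicate 1 as the only control, AT1G31950 differed by 2.46, AT3G32030 by 1.38 and AT1G66020 by -1.78. With 1 array left out there were 1 to 2, beside 2.96% to 15.4%. The 4 members with separate groups became 11 against control replicate 1 alone, where 66.8% of all probe sets separate, and 5 to 8 with 1 array left out, where 29.2% to 43.5% do. Fewer arrays separate more easily by construction. The median over members went to 1.11 among the 6 above the median level, a filter that AT1G31950 passed through its BL arrays. Of 204 alternatives for 14 single genes, 182 kept the direction, 20 reversed, 2 were exactly 0 under the floor, and 0 passed. These alternatives are not separate checks of direction, since some could not change it and some repeat the difference of another. When controls 2 and 3 had their own term or were left out, AT4G20230 turned to -0.93, AT1G31910 to -0.036, LUP5 (AT1G66960) to 0.0043, AT3G20160 to 0.071 and AT5G47980 to 0.80. Under quantile normalization LUP5 was 0.031 and under cyclic loess 0.036. Array weights gave 0.00090 for LUP5 and 0.35 for AT5G47980. Leaving out 1 array in turn, AT4G20230 ran from -0.17 to 1.16, AT1G31910 from -0.0019 to 0.27, LUP5 from -0.0091 to 0.0043, AT3G20160 from -0.49 to 0.021 and AT5G47980 from -0.56 to 0.70. The cause was not tested. Where 1 BL array was left, it was assumed to vary like the controls. With the replicate block AT1G31950 differed by 2.71. The correlation of deviations from the group means was -0.060 between the replicates numbered 1 and 0.037 between those numbered 2, which does not show pairing.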
